A study of Mus musculus with 4 samples.

Results

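The genes of glycolysis and of the pentose phosphate pathway were examined in alveolar macrophages (AMs), which live in the airspace of the lung, from mice with and without a mammary tumor. The members were the rows of the gene count table whose symbol matched a list of 33 genes, which covers glucose and lactate transporters, the enzymes of both pathways, regulators of pyruvate use and the transcription factor Hif1a. All 33 symbols were found among the 54532 rows of the table. The symbol Aldoa was carried by 2 rows, so that 34 rows matched. The second Aldoa row (ENSMUSG00000114515) held 0 and 1 counts in control and 5 and 4 in tumor AMs, and was too low to be tested.

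The study compared bulk RNA-seq of AMs from 2 control and 2 tumor libraries. Control AMs came from female WT mice that received no 4T1 inoculation. Tumor AMs came from female WT mice that had carried a primary 4T1 tumor for 2 weeks. 4T1 is a mammary carcinoma line that is placed in the mammary fat pad and spreads spontaneously to the lung. According to the methods, WT mice were young adults on a BALB/c background. Both groups were of the same sex and genotype, and no library carried a deletion or a drug treatment. The methods for RNA-seq describe the AMs only as purified. The study names the AMs that it isolated for staining at the same time point as CD45+ CD11b- CD11c+ SiglecF+ cells, and mentions that isolation together with the RNA-seq. The methods do not say how many mice were used for each library, so the spread between replicates may be partly technical. The standard errors and p-values below may therefore not measure variation between mice.

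Glycolysis splits glucose into pyruvate. Glucose enters through SLC2A transporters, is trapped by hexokinases as glucose 6-phosphate, is committed by phosphofructokinase, and leaves the pathway as pyruvate, which is either oxidised in mitochondria or reduced to lactate and exported by SLC16A transporters. The pentose phosphate pathway branches off at glucose 6-phosphate, makes NADPH in its oxidative steps, and returns carbon to glycolysis through transketolase and transaldolase. Macrophages are known to raise glycolysis on inflammatory activation, and HIF-1, the dimer of HIF-1α and ARNT, is a known activator of many glycolytic genes.

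The promoters of 4 members are shown because they belong to transporters and rate-limiting enzymes that went in opposite directions, which was known when they were chosen, and because HIF-1 is known to bind the letters ACGTG or GCGTG. Each window holds 250 bases before and 50 after an annotated gene start in RefSeq, build GRCm38.p6, read 5′ to 3′ on the strand of the gene, and capitals mark ACGTG or GCGTG on either strand (CACGT and CACGC when read on the other strand). The window of Slc2a1 is chr4:119108495-119108794 on the plus strand, that of Slc16a3 is chr11:120948817-120949116 on the plus strand, that of Hk2 is chr6:82774405-82774704 on the minus strand and that of Pfkp is chr13:6648722-6649021 on the minus strand. Slc2a1 and Slc16a3 were higher in tumor AMs.
Slc2a1: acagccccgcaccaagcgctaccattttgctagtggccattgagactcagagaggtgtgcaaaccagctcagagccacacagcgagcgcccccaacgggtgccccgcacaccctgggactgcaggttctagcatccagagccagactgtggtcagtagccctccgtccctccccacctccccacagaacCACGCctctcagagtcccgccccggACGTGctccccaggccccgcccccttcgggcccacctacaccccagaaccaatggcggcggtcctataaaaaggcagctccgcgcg
Slc16a3: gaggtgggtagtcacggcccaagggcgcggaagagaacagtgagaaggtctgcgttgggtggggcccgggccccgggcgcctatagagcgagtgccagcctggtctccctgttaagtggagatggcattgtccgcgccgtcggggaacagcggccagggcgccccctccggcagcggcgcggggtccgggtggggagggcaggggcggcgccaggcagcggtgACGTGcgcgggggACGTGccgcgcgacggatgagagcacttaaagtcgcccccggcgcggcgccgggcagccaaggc
Hk2 and Pfkp were lower in tumor AMs under the scaling used here.
Hk2: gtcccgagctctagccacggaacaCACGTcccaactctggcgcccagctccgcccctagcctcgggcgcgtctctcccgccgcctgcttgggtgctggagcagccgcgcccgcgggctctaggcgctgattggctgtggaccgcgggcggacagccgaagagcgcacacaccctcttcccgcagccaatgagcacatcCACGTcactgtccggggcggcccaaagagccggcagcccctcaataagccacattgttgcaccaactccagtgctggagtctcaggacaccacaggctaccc
Pfkp: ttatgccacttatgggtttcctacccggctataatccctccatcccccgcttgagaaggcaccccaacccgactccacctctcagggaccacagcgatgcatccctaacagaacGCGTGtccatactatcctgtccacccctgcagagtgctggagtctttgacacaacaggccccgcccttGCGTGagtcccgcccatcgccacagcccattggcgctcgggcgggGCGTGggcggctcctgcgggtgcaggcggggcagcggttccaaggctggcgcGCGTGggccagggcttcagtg

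Each of the 4 windows held a match, as did most member windows, since GCGTG by itself stood in 57.4% of them. The Slc2a1 window held 1 ACGTG and 1 GCGTG, the Slc16a3 window 2 ACGTG, the Hk2 window 2 ACGTG and the Pfkp window 4 GCGTG. Promoter windows were at hand for 32 members, 47 windows in all since some genes have several starts. No window was at hand for Slc2a3. Some windows of the same gene overlap, as for Eno1 and Aldoa, and were counted separately. ACGTG stood in 46.8% of the member windows, against 19.6% of all 32851 windows, and GCGTG in 57.4% against 32.4%. CACGTG, which contains ACGTG on both strands and is the E-box read by MYC and MLX family factors, stood in 12.8% against 7.15%. Among the 20 windows of higher members, 55% held ACGTG, and among the 12 windows of lower members 41.7% did. GCGTG stood in 55% of the windows of higher members and in 58.3% of those of lower members, and CACGTG in 10% and 8.33%. A match is a string of letters and not a measured binding site.

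Total counts ranged from 16167147 to 19205737 in the 4 libraries, and the floor, at or below which a count was not read as expression, was 3. Log2 levels in CPM, the counts scaled to a common library size, correlated across genes at 0.99 within each group and at 0.90 to 0.91 between the groups. AM identity transcripts were abundant in all 4 libraries, but their summed level was 16560 and 16710 CPM in control and 12640 and 12790 CPM in tumor AMs, and 13 of the 15 genes on the list fell. The 12 neutrophil markers summed to 113.9 and 113.7 CPM in control and to 4511 and 4495 CPM in tumor AMs, with 5 of the 12 at the floor in both control libraries. The eosinophil list summed to at most 0.640 CPM in control and to 2692 to 2735 CPM in tumor AMs, with 4 of its 6 genes at the floor in both control libraries, and the basophil and mast cell list to at most 2.29 CPM and to 523 to 529 CPM, with 5 of 6 at the floor. The hepatocyte list, of which 9 of 10 genes were tested and all 9 were at the floor in both control libraries, summed to at most 0.253 CPM in control and to 666 to 670 CPM in tumor AMs. The erythroid list was low but also rose, from at most 1.46 CPM in control to 14.4 to 15.1 CPM in tumor AMs. Its 3 tested genes were all higher. The part of these other transcripts in the results below was not tested, and in bulk RNA fewer cells of a type and less RNA per cell cannot be told apart.

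As a set, the members took up more of the tumor libraries than of the control libraries. They held 0.564% and 0.572% of all counts in control and 0.676% and 0.685% in tumor AMs, and the groups did not overlap. Of the 33 members, 23 differed at an adjusted p under 0.05 in edgeR's quasi-likelihood test, 16 higher and 7 lower in tumor AMs. That is 69.7% of the members, in a comparison in which 53.8% of all 14256 genes tested were called, 29.0% higher and 24.8% lower. The 30 members with a mean of at least 10 CPM had 23 calls, or 76.67%, against 63.0% of all genes at that level. By direction, 48.48% of members were higher, and 21.21% were lower. Of the 30 members with a mean of at least 10 CPM, 16 were higher and 7 lower, where 28.3% of all genes at that level were higher and 34.7% lower.

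Most of the changes were small. With a change of at least 1.5-fold required, 7 members were higher and 1 was lower (Hk2), against 17.4% of all genes higher and 7.92% lower. At 2-fold, 4 members were higher (Slc2a1, Slc2a3, Slc16a3 and Gapdh, the last of which was at -0.0147 without tumor replicate 2) and 0 were lower, against 12.9% and 3.01% of all genes. The median log2 fold change of the members was 0.17, beside 0.02 for all genes tested. The groups did not overlap in 27 of the 33 members, where 75.1% of all genes did not overlap.

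The directions of the small changes depend on the scaling. The values given here use TMM scaling, which places the median of all genes near 0. When libraries were scaled on the AM identity genes instead, the median of all genes moved by 0.47 on the log2 scale to 0.49, and 28 members were called, 27 of them higher and 1 lower (Hk2). The share of higher calls then rose from 69.6% to 96.4% among members and from 53.9% to 92.5% among all genes. Relative to the median of all genes, each member lay within 0.01 of the same place under both scalings. That follows from the method, since rescaling libraries moves all genes by nearly the same amount.

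**Figure D1:**
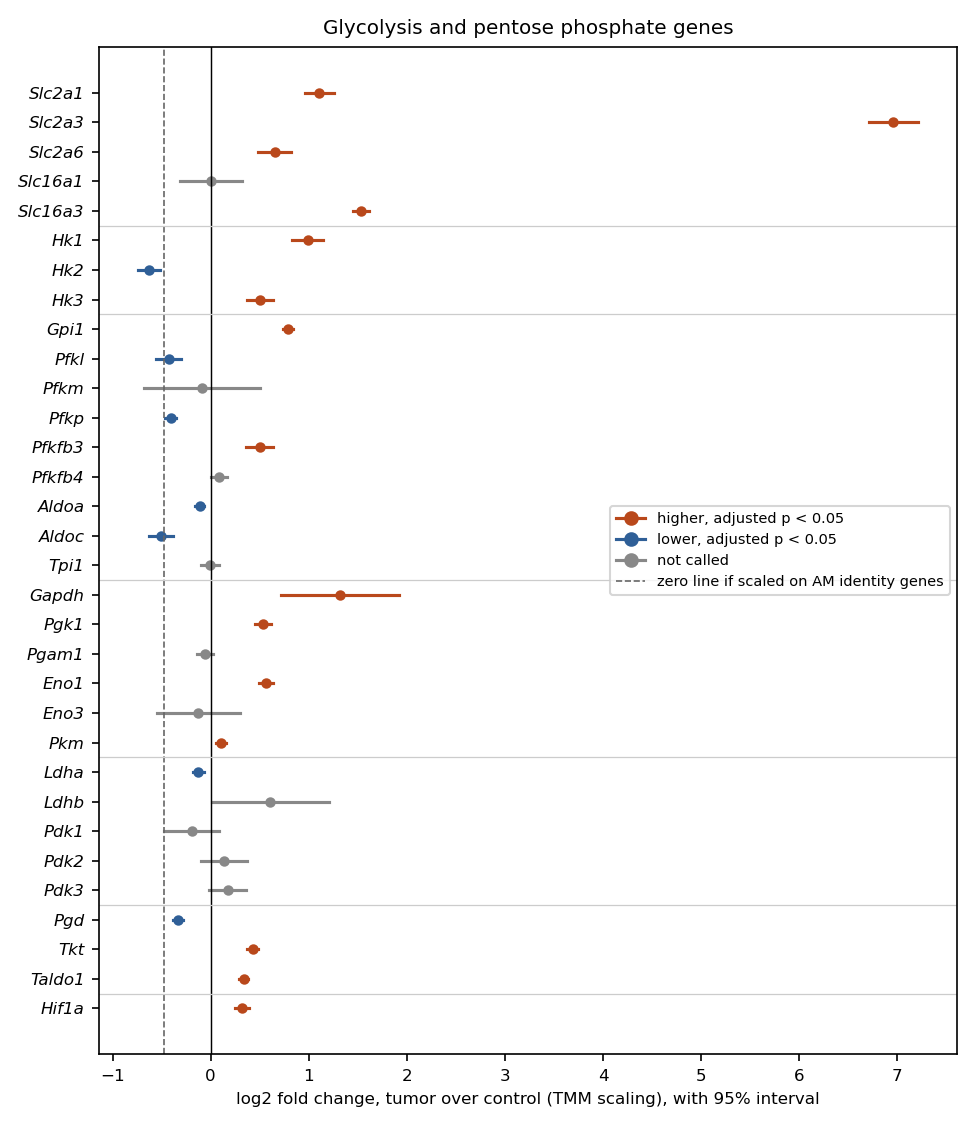
Log2 fold change of 32 of the members, tumor over control, with 95% intervals on the horizontal axis and the genes in pathway order from transporters at the top to Hif1a at the bottom. Orange marks genes higher and blue genes lower at an adjusted p under 0.05. Slc2a3 stands alone at 6.96, the others lie between -0.63 and 1.53, and all blue genes except Hk2 and Aldoc lie to the right of the dashed line, which is where 0 would lie under scaling on AM identity genes.

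Of the 5 transporters, 4 were higher and Slc16a1 was not called, against 29.0% of all genes higher. Among further transporters of glucose, lactate and pyruvate outside the list, Slc2a2 was higher from 0 counts in both controls. Slc2a8, Slc2a9 and Mpc1 were not called. Slc16a7 and Mpc2 were lower at -0.53 and -0.20, beside a shift of 0.47 between the scalings. Slc2a3 (ENSMUSG00000003153, chromosome 6, 122727809 to 122801640, GRCm38), which encodes the high-affinity glucose transporter GLUT3, had 13 and 15 counts in control and 1765 and 1993 counts in tumor AMs. In CPM this was 0.694 and 0.950 against 101.9 and 101.6. The gene was near the floor in both controls and well expressed in both tumor libraries. The log2 fold change was 6.96 ± 0.123 (SE), or 124-fold, with an adjusted p of 1.26e-26. The neutrophil, eosinophil and other lists rose in the same libraries, and their part in the Slc2a3 value was not tested.

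**Figure D2:**
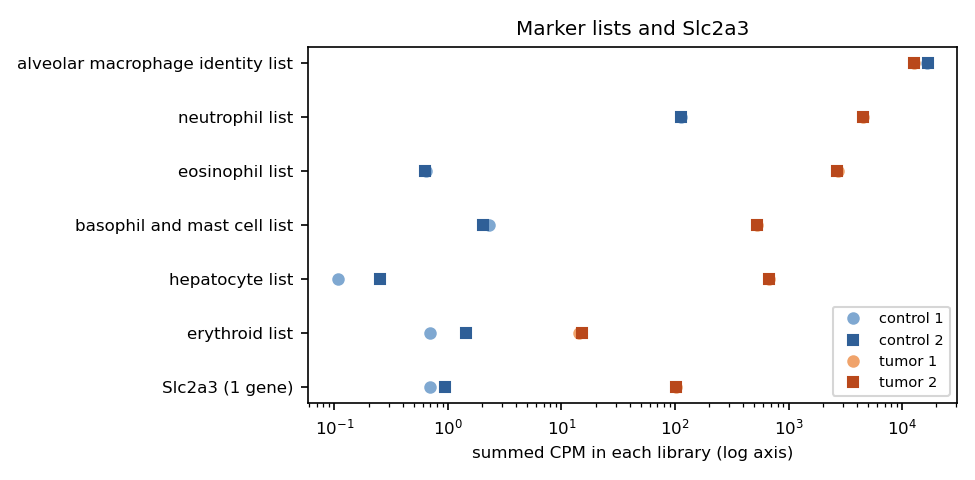
Summed CPM of the marker lists in each library and the level of Slc2a3, on a log axis, with blue for control and orange for tumor. AM identity transcripts are lower in both tumor libraries (12640 and 12790 against 16560 and 16710 CPM), every other list is higher, and Slc2a3 moves from under 1 CPM to near 102 CPM in the same libraries.

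Slc2a1, which encodes GLUT1, the main basal glucose transporter of many cells, stood at 29.3 and 27.9 CPM in control and at 60.2 and 63.4 CPM in tumor AMs. Both tumor libraries lay above both controls, and the log2 fold change was 1.11 ± 0.0706 (adjusted p = 1.12e-13). Slc2a6, which encodes the lysosomal transporter GLUT6, stood at 25.0 and 25.9 CPM in control and at 38.6 and 41.1 CPM in tumor AMs. It was again higher in both tumor libraries, by 0.65 ± 0.0803 (adjusted p = 7.77e-08).

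Slc16a3 encodes MCT4, a lactate exporter of glycolytic cells. It was measured at 98.7 and 102.8 CPM in control and at 282.3 and 300.5 CPM in tumor AMs. The groups were far apart relative to the spread within each, and the log2 fold change was 1.53 ± 0.0384 (adjusted p = 4.95e-23). Slc16a1, which encodes the related carrier MCT1, stood at 9.98 and 11.8 CPM in control and at 12.9 and 9.02 CPM in tumor AMs. Its groups overlapped, and the 95% interval of the log2 fold change ran from -0.32 to 0.32, while scaling on AM identity genes gave a called rise of 0.47 (adjusted p = 0.00726).

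**Figure D3:**
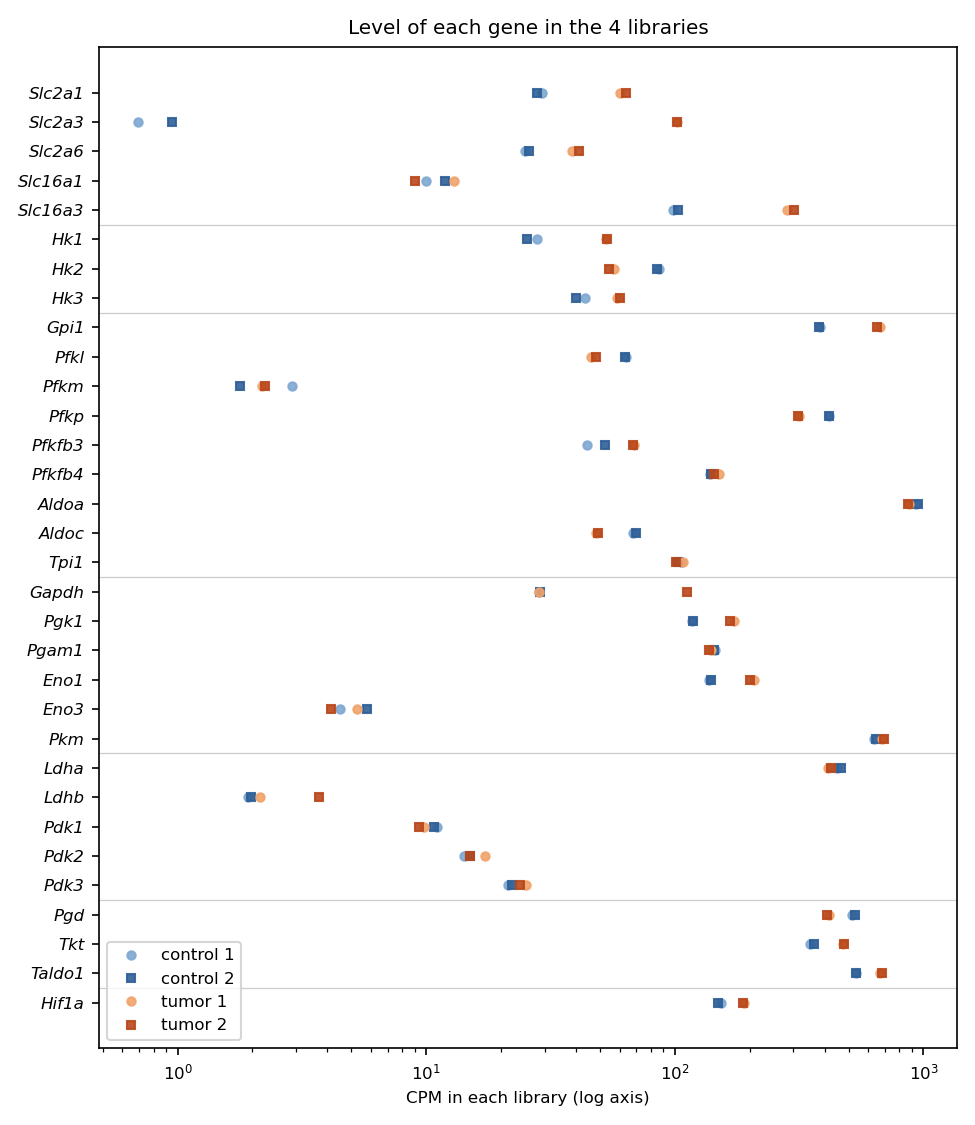
Level of 32 of the members in the 4 libraries in TMM-scaled CPM, on a log axis, with blue for control and orange for tumor, a circle for replicate 1 and a square for replicate 2. Replicates nearly coincide for most genes, Slc2a3 lies under 1 CPM in both controls and near 102 CPM in both tumor libraries, and Gapdh has 3 libraries between 28.4 and 28.8 CPM with tumor replicate 2 apart at 112.1 CPM.

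Per kilobase of transcript, the 3 glucose transporters together rose from a level of 16.2 ± 0.0742 CPM per kilobase (RPKM; mean ± SD, n = 2) to 44.1 ± 1.15, a ratio of 2.72. Slc2a3 supplied 0.701% of that sum in control and 31.9% in tumor AMs (50.02% in raw counts without division by length, where it exceeded Slc2a1 at 30.4%). The share of Slc2a1 went from 50.4% to 40.0%, although its own level rose, and that of Slc2a6 from 48.9% to 28.2%. The 2 lactate transporters went from 21.4 to 57.3 RPKM, a ratio of 2.67, with Slc16a3 supplying 88.5% of the sum in control and 95.7% in tumor AMs. These shares compare genes within a library and do not depend on the scaling between libraries.

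The hexokinases, which trap glucose in the cell by phosphorylation, moved in different directions. Hk1, the widely expressed isoform, stood at 27.9 and 25.4 CPM in control and at 52.7 and 53.3 CPM in tumor AMs. It was higher in both tumor libraries by 0.99 ± 0.0755 (adjusted p = 6.03e-12). Hk3, an isoform known from myeloid cells, stood at 43.4 and 40.1 CPM in control and at 58.7 and 60.0 CPM in tumor AMs, a rise of 0.50 ± 0.0659 (adjusted p = 2.11e-07). Hk2, the inducible isoform and a known HIF-1 target, went the other way. It stood at 86.5 and 84.9 CPM in control and at 56.7 and 54.3 CPM in tumor AMs, with no overlap. The log2 fold change was -0.63 ± 0.0542 (adjusted p = 7.97e-11), and -0.16 with an adjusted p of 0.0137 when scaled on AM identity genes. It was the member that fell most.

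The sum of the 3 hexokinases changed little beside its parts. It was 28.8 ± 1.04 RPKM in control and 31.6 ± 0.0246 RPKM in tumor AMs, a ratio of 1.10 (1.52 when scaled on AM identity genes). Hk2 supplied 49.0% and 50.6% of it in control and 30.1% and 28.8% in tumor AMs. Hk3 went from 39.3% to 51.0% and Hk1 from 10.8% to 19.6%, so that the leading hexokinase transcript per kilobase was Hk2 in control and Hk3 in tumor AMs.

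**Figure D4:**
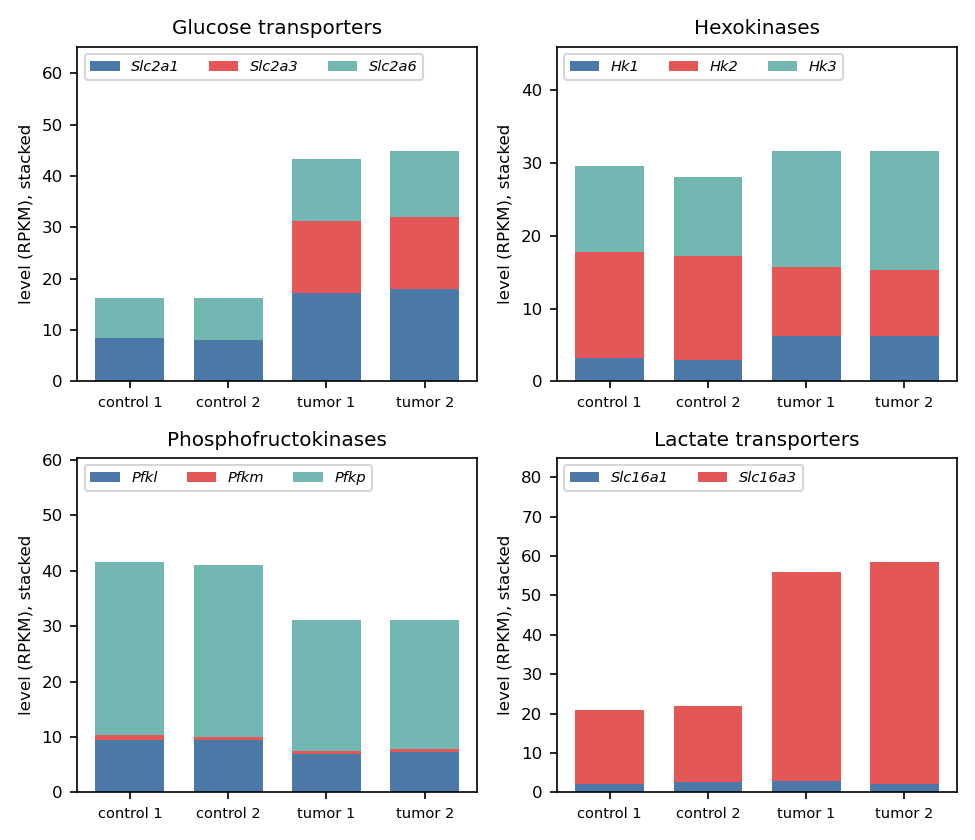
Stacked levels in RPKM of the paralogs in 4 families, 1 bar for each library, with TMM scaling. The glucose transporter sum rises from about 16.2 to 44.1 RPKM with Slc2a3 appearing as a new segment, the hexokinase sum is nearly level while the Hk2 segment shrinks, the phosphofructokinase sum falls from 41.3 to 31.2 RPKM (a ratio of 0.754, or 1.05 when scaled on AM identity genes) with its composition kept, and the lactate transporter sum rises from 21.4 to 57.3 RPKM.

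In upper glycolysis, which runs from glucose 6-phosphate to triose phosphates, 2 members rose, 4 fell and 3 were not called, against 29.0% of all genes higher and 24.8% lower. Gpi1, which converts glucose 6-phosphate to fructose 6-phosphate, stood at 382.1 and 381.8 CPM in control and at 667.1 and 652.9 CPM in tumor AMs. The controls were nearly identical and both tumor libraries far above them, with a log2 fold change of 0.79 ± 0.0248 (adjusted p = 1.05e-20). Pfkfb3, whose product makes fructose 2,6-bisphosphate, the strongest allosteric activator of phosphofructokinase, rose by 0.50 ± 0.0672 (adjusted p = 3.73e-07). Its sister Pfkfb4 stood at 138.6 and 139.6 CPM in control and at 151.0 and 144.2 CPM in tumor AMs. That difference of 0.08 did not pass (adjusted p = 0.0699), although the groups did not overlap, and it passed in 4 of the 14 other fits: scaling on AM identity genes, total counts, at least 10 counts in every library, and without tumor replicate 2.

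Phosphofructokinase catalyses the committed step of glycolysis. Pfkp, the platelet-type subunit, stood at 418.3 and 416.3 CPM in control and at 317.0 and 312.0 CPM in tumor AMs. It fell by 0.41 on the log2 scale in a comparison without overlap (adjusted p = 2.96e-13), but reached 0.06 in the opposite direction when scaled on AM identity genes. Pfkl, the liver-type subunit, fell by 0.43 (adjusted p = 1.11e-06) and came to 0.04 under that scaling, where it was not called. Pfkm, the muscle-type subunit, had 54 and 28 counts in control and 38 and 44 in tumor AMs. Its groups overlapped, its interval ran from -0.68 to 0.51, and it overlaps Senp1 on the opposite strand, so that reads of both genes cannot be told apart if strand was not used in counting. The make-up of the enzyme at the transcript level was the same in both groups within the spread of the libraries. Pfkp supplied 75.0% and 75.6% of the phosphofructokinase sum per kilobase in control and 75.9% and 74.6% in tumor AMs.

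The aldolases, which split fructose 1,6-bisphosphate, also fell under TMM scaling. Aldoa, which among the members had the highest level per kilobase in control at 323 RPKM, fell by 0.11 (adjusted p = 4.95e-05), came to -0.05 with total counts as library sizes, where it was not called, and rose by 0.36 when scaled on AM identity genes. Aldoc fell by 0.50 (adjusted p = 3.56e-08) and was not called at -0.03 under the AM identity scaling. Tpi1, the triose phosphate isomerase, stood at 105.6 and 103.0 CPM in control and at 107.5 and 100.7 CPM in tumor AMs. Its groups overlapped, and the interval of its log2 fold change ran from -0.10 to 0.09, against a rise of 0.47 under scaling on AM identity genes.

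Lower glycolysis, where ATP and NADH are gained, had 4 members higher, 0 lower and 2 not called, against 29.0% of all genes higher and 24.8% lower. The call of Gapdh, which is among the 4, was lost without tumor replicate 2. Pgk1, the first ATP-forming enzyme, rose by 0.53 ± 0.0392 (adjusted p = 2.79e-12), and Pkm, the pyruvate kinase, by 0.11 ± 0.0232 (adjusted p = 0.000309). Pgam1, the phosphoglycerate mutase, stood at 144.4 and 144.1 CPM in control and at 139.7 and 137.5 CPM in tumor AMs. The difference of -0.06 did not pass (adjusted p = 0.207), and under scaling on AM identity genes it was a called rise of 0.41. Eno3, the muscle enolase, had between 81 and 91 counts in every library, with overlapping groups and an interval from -0.54 to 0.29.

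Eno1, the main enolase, rose by 0.56 ± 0.0366 (adjusted p = 1.82e-13). Its transcripts share most of their 50-base words with Eno1b and with the processed pseudogene Gm4735, and these 2 rows together held 40.3% to 41.8% of the summed counts of the 3 rows in every library. Reads from Eno1 may therefore have been assigned to the copies or the reverse. With the copies added to Eno1, the level was 231.7 and 240.2 CPM in control and 349.4 and 343.6 CPM in tumor AMs. The log2 fold change was then 0.55 ± 0.0306, so the split did not move the result.

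Gapdh, which oxidises glyceraldehyde 3-phosphate and often serves as a reference gene, was the member whose call rested on a single library. It had 532 and 454 counts in control and 491 and 2200 in tumor AMs, or 28.4, 28.8, 28.4 and 112.1 CPM. Tumor replicate 1 was level with both controls and tumor replicate 2 stood apart. Of the 7645 genes with at least 300 counts used for this check, Gapdh had the largest difference between the tumor replicates, 1.98 on the log2 scale, where the median absolute difference was 0.0581. Its log2 fold change was 1.32 ± 0.292 (adjusted p = 0.00037), but -0.0147 with an adjusted p of 0.920 without tumor replicate 2, and the DESeq2 Wald test gave an adjusted p of 0.266.

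Most of the summed counts of Gapdh and its sequence copies lay on the copies, and whether those reads also match Gapdh was not measured. The annotation holds 30 other genes that share at least 50% of their 50-base words with Gapdh, nearly all of them processed pseudogenes, and together they held 93.6%, 93.3%, 93.6% and 78.4% of the summed counts in control replicates 1 and 2 and tumor replicates 1 and 2. The pseudogene Gm13394 (chromosome 2, 28933610 to 28934609, GRCm38) alone had 7580 and 6170 counts in control and 7005 and 7757 in tumor AMs. With all copies added, Gapdh stood at 443 and 429 CPM in control and at 443 and 520 CPM in tumor AMs, and the log2 fold change was 0.14 ± 0.0411 (adjusted p = 0.00423). Tumor replicate 1 then lay on control replicate 1, so the sum still rested on tumor replicate 2.

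**Figure D5:**
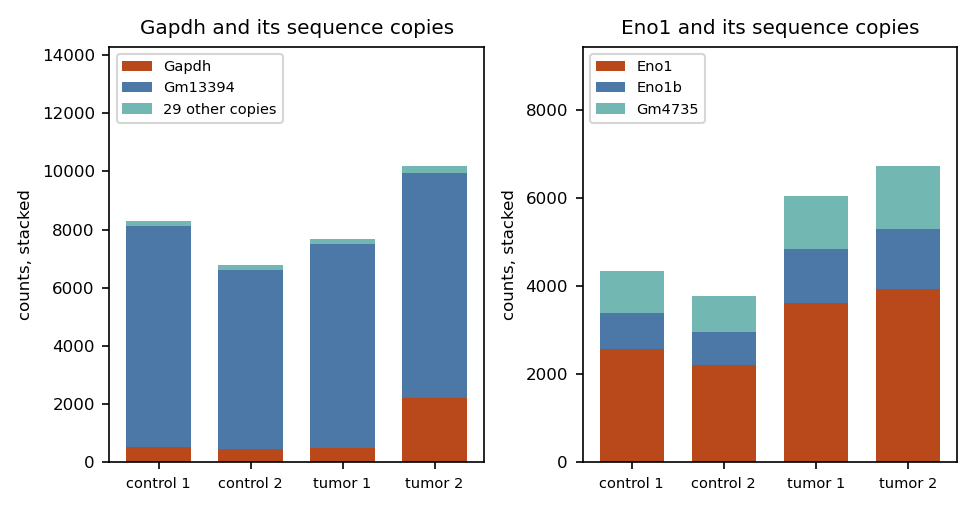
Counts of Gapdh and of Eno1 stacked with those of their sequence copies, 1 bar for each library. In the left panel the Gapdh segment is thin beside Gm13394 in 3 libraries (454 to 532 counts) and wider in tumor replicate 2 (2200 counts), and in the right panel Eno1, Eno1b and Gm4735 keep their proportions while the bars of the tumor libraries are taller.

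Of the 5 genes that decide the fate of pyruvate, 0 were higher and 1 was lower (Ldha), against 29.0% of all genes higher and 24.8% lower, whereas scaling on AM identity genes called Ldha, Ldhb, Pdk2 and Pdk3 as higher. Ldha, which reduces pyruvate to lactate and is a textbook HIF-1 target, stood at 449.9 and 465.3 CPM in control and at 411.5 and 425.8 CPM in tumor AMs. It fell by 0.13 (adjusted p = 0.00024), was not called at -0.06 with total counts as library sizes, and rose by 0.35 when scaled on AM identity genes. Ldhb, which favours the reverse reaction, had 36 and 31 counts in control and 37 and 73 in tumor AMs. Tumor replicate 1 was again close to the controls, and the difference of 0.61 ± 0.290 did not pass (adjusted p = 0.0816). It was 0.93 with an adjusted p of 0.0048 without tumor replicate 1, 0.13 and not called without tumor replicate 2, and a called 1.08 when scaled on AM identity genes. Per kilobase, Ldha supplied 98.2% to 99.1% of the sum of Ldha and Ldhb in every library. That sum leaves out Ldhc, which is not a member. In the tumor libraries Ldhc stood at 4.57 and 3.94 RPKM, against 1.36 and 2.37 RPKM for Ldhb.

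The 3 pyruvate dehydrogenase kinases on the member list, which switch off entry of pyruvate into mitochondrial oxidation, were not called, whereas Pdk4, outside the list, was lower at -0.98. Pdk1 stood at 11.1 and 10.8 CPM in control and at 9.82 and 9.33 CPM in tumor AMs (log2 fold change -0.19 ± 0.137). Pdk2 stood at 14.2 and 15.02 CPM in control and at 17.2 and 14.98 CPM in tumor AMs (0.14 ± 0.116). Pdk3 stood at 21.3 and 22.2 CPM in control and at 25.3 and 23.8 CPM in tumor AMs (0.17 ± 0.0929). Only Pdk2 had overlapping groups among these 3, and Pdk2 and Pdk3 were called as higher under scaling on AM identity genes, Pdk3 also with total counts as library sizes.

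All 4 pentose phosphate members were called, 3 higher and 1 lower, against 53.8% of all genes called and 33.33% of the 9 further pentose phosphate genes tested. Pgd, an NADPH-forming enzyme, stood at 514.4 and 532.0 CPM in control and at 418.4 and 411.1 CPM in tumor AMs. It fell by 0.33 ± 0.0261 on the log2 scale (adjusted p = 9.16e-12) and rose by 0.14 when scaled on AM identity genes. Relative to the median of all genes it lay at -0.35, a distance that rescaling leaves nearly unchanged. Opposite-strand genes overlap Pfkp (Pitrm1), Tpi1 (Spsb2) and Gapdh (Iffo1).

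The members Tkt and Taldo1, which act in the non-oxidative steps, both rose, while Rpia and Rpe of the same steps were not called (0.05 for each). Tkt, the transketolase, stood at 349.1 and 362.4 CPM in control and at 476.2 and 479.3 CPM in tumor AMs (0.43 ± 0.0269, adjusted p = 9.54e-14). Taldo1, the transaldolase, which at 247 RPKM had the second highest control level per kilobase of the members, stood at 536.4 and 536.1 CPM in control and at 670.0 and 682.5 CPM in tumor AMs (0.33 ± 0.0234, adjusted p = 8.77e-13). Neither overlapped between groups. Hif1a rose by 0.32 ± 0.0360 (adjusted p = 1.72e-08), from 153.0 and 148.6 CPM to 188.9 and 187.1 CPM. HIF-1α is known to be controlled mainly by protein stability, which these data do not measure.

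Further genes of the same pathways were read from fixed lists, and 46 of the 78 that could be tested were called, 35 higher and 11 lower (67 higher and 2 lower when scaled on AM identity genes). Of all genes, 53.8% were called, 29.0% higher and 24.8% lower. With at least 10 counts required in every library, 37 of 68 were called, 26 higher and 11 lower, beside 6517 of all 12279 genes. Of 27 further genes of glycolysis and pyruvate entry, 7 were higher and 7 lower, a share of 51.85% close to the background of 53.8%. The largest rise outside the floor was Adpgk, an ADP-dependent kinase of glucose, at 38.6 and 34.9 CPM in control and 160.4 and 160.0 CPM in tumor AMs (2.12 ± 0.0519, adjusted p = 3.04e-23). Ldhc was at least 32.7-fold higher and Slc2a2, the liver and beta-cell glucose transporter, at least 8.51-fold higher. Both were at the floor in both controls and kept for testing only through the tumor libraries, so their calls add nothing to these shares. Bounds of this kind take the floor of 3 counts in the control library with the higher floor against the lower tumor library. Slc2a4, Hkdc1 and Pklr were at 6 counts or fewer in every library and were not tested.

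Of 17 tested genes of gluconeogenesis and glycogen metabolism, 11 were higher and 0 lower, or 64.71% called, against 53.8% of all genes called and 29.0% higher. Of the higher genes, Pck1, Fbp1, G6pc and Gys2 were at the floor in both control libraries. They were kept for testing only through the tumor libraries, so their calls do not count toward a share above the background. Pck1, the entry enzyme of gluconeogenesis in liver, had 0 and 0 counts in control and 303 and 398 in tumor AMs, at least 92.0-fold higher. Fbp1 was at least 21.9-fold, G6pc at least 12.6-fold and Gys2, the liver glycogen synthase, at least 4.25-fold higher. Slc2a2, Pck1, G6pc and Gys2 are known as liver genes, and they rose beside the hepatocyte list, which went from at most 0.253 CPM to 666 to 670 CPM, and their relation to it was not tested. The 9 tested further pentose phosphate genes were called in 33.33%, under the background. Of these, 2 were higher (Shpk by 0.64 and Pgls by 0.23) and 1 lower (Tktl1, with a log2 fold change of -0.87 at 36, 34, 21 and 20 counts). Tktl2 and Fbp2 were too low to be tested.

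Genes linked to Hif1a were read from 2 lists. Of 12 tested HIF targets outside glycolysis, 7 were higher and 1 lower (Ero1l, at -0.29), so that 66.67% were called and 58.33% were higher, against 53.8% and 29.0% of all genes. Ddit4, an mTORC1 inhibitor, had 12 and 10 counts in control and 453 and 631 in tumor AMs (5.50 ± 0.200, adjusted p = 2.92e-19). Vegfa, the angiogenic growth factor, went from 3.47 and 3.87 CPM to 61.1 and 58.7 CPM (4.03 ± 0.108, adjusted p = 2.4e-22). Ndrg1 was higher by 1.24, and Ankrd37 by 1.36 at 9, 3, 19 and 14 counts (adjusted p = 0.046). Not called were Car9 (-0.26), Higd1a (-0.26), Bnip3l (0.04) and P4ha1 (0.11). Several of these genes are also known to respond to other signals. The 7 tested HIF pathway proteins were called in 57.14%, near the background. Of these, 3 were higher, led by the prolyl hydroxylase Egln3 (3 and 7 counts against 87 and 126, 4.27 ± 0.362), and Epas1, which encodes HIF-2α, was lower at -0.29. The falls of Ero1l and Epas1 were smaller than the shift of 0.47 between the scalings. Hif3a, Adm and P4ha2 were too low to be tested.

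All 6 regulators that respond to glucose or drive glycolytic genes were called, 5 higher and 1 lower (Mlx, at -0.24, within the shift between the scalings), where 53.8% of all genes were called, 29.0% higher and 24.8% lower. Txnip, a thioredoxin-binding arrestin that restrains glucose uptake and is induced by glucose, stood at 104.5 and 108.7 CPM in control and at 366.0 and 360.5 CPM in tumor AMs (1.77 ± 0.0341, adjusted p = 1.05e-25). Its relative Arrdc4 rose by 0.76 ± 0.0599, and Myc by 1.02 ± 0.0767. Mlxipl, which encodes the glucose sensor ChREBP, had 0 and 0 counts in control and 10 and 18 in tumor AMs, at least 3.04-fold higher. Mlxipl was kept for testing only through the tumor libraries, so its call adds nothing to the count of 6. Its relation to the hepatocyte list, which rose in the same libraries, was not tested.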

How the data were processed

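AMs were profiled by bulk RNA-seq in 2 control and 2 tumor libraries. RNA was isolated with TRIzol and sequenced from NEBNext Ultra libraries, per the labels. Reads were paired-end from an Illumina HiSeq, aligned with HISAT2 (version 2.0.5 in the submitters' processing notes, which also name DESeq2) and assigned to genes by featureCounts. Raw counts per gene were deposited by the authors, and FPKM values that they also calculated were not used here. Genome build, annotation release, strandedness and the handling of reads with several matches are not given in the sources used here. The gene identifiers matched GENCODE release M21 (GRCm38) in 99.77% of rows, and 33 of the 34 member rows had identical coordinates. Pgam1 was the exception. The table had 0 value columns without a sample.

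The whole table was fitted with edgeR 4.0.16 under R 4.3.3. Genes were kept by filterByExpr at a minimum count of 10, library sizes were scaled by TMM (factors 0.977 to 1.02), and the quasi-likelihood test used group as its single term, with Benjamini-Hochberg adjustment over the 14256 genes tested and a threshold of 0.05. CPM and RPKM were computed from the counts, the scaled library sizes and the gene lengths of the table. The SE was obtained from the log2 fold change and the F statistic, as their quotient after taking the root of F. The test was run first on simulated data. Intervals rest on 2 libraries per group, for which no permutation of the groups could reach the threshold. Sequence copies were other genes sharing at least 50% of the 50-base words of one of their transcripts with a member. Promoters came from RefSeq.

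A member and some genes of the further lists entered the counts but are not reported here singly. The members and lists were chosen with earlier results of these data known. The rule for named genes asked for values per library for members that were called with at least a 1.5-fold change or were not called, and for at most the 4 called genes with the largest change from each further list. Values per library of other called members (Hk3, Pfkp, Ldha, Pgd, Tkt, Taldo1 and Hif1a), the further genes in the closing section and single genes behind small counts were added after their values were seen. Pck1, Fbp1 and Ldhc were also displayed by the study, so their rise is not independent evidence. Alternatives were DESeq2 size factors, total counts, scaling on AM identity genes, no filter, limma-voom (limma 3.58.1), DESeq2 1.42.0 with its Wald test, a minimum of 10 counts per library, the replicate number as a block, dropping the 20 most abundant genes, fold thresholds, shares without length, and leaving out each library. Adding copies to their member was chosen after seeing the data.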

Additional observations from a re-analysis of the deposited data

How the results depend on the processing

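Of the 23 called members, 16 kept direction and call in all 14 other fits, and the exceptions were Aldoa, Pgd, Ldha, Pfkp, Aldoc, Pfkl and Gapdh. Scaling on AM identity genes moves all genes by nearly the same amount, and here upward because most AM identity genes fell. It turned Aldoa to 0.36, Pgd to 0.14, Ldha to 0.35, Pfkp to 0.064 and Pfkl to 0.0424, and the uncalled Pgam1 to 0.41 and Tpi1 to 0.47. Leaving out tumor replicate 2 turned Gapdh to -0.0147, and leaving out tumor replicate 1 gave 1.97, since tumor replicate 2 alone held the higher count. Requiring at least 1.5-fold left 3607 genes and 8 members, and at least 2-fold left 4 members, which follows from the stricter rule. Without division by length, the change in share was 48.5 percentage points for Slc2a3, -22.6 for Hk2, 1.54 for Aldoa, -1.33 for Eno3 and -4.04 for Pdk1, with the same sign as per kilobase. Leaving out 1 library at a time gave 6515 to 7470 called genes, 23 to 24 called members and 36 to 43 called further pathway genes, on the assumption that the lone library varies like the others. With the copies added, 23 members were called.

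Samples with the same replicate number did not deviate together (r = 0.00549 across genes), so the numbers were not taken to pair the libraries. With the replicate number as a block, 7446 genes, 23 members and 44 further pathway genes were called, a change under 1.5-fold in each count. The widest intervals among uncalled members were those of Pfkm and Ldhb, which had between 28 and 73 counts in each library.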

Other observations

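Entry of pyruvate into mitochondria was read from genes outside the member list, singled out after their values were seen. The pyruvate dehydrogenase E1 subunits Pdha1 and Pdhb were higher in tumor AMs by 0.20 and 0.17 on the log2 scale, while Pdhx was at -0.37, Dld, a subunit shared with other dehydrogenase complexes, at -0.15 and the mitochondrial pyruvate carrier subunit Mpc2 at -0.20. The falls of Pdhx, Dld and Mpc2 were smaller than the shift of 0.47 between TMM scaling and scaling on AM identity genes. Dlat (-0.12), Mpc1 (0.17), Pdpr (-0.18) and Pdp1 (0.27) were not called. Larger falls were seen for Pdk4, the fasting-induced pyruvate dehydrogenase kinase, at 18.4 and 18.7 CPM in control and 9.12 and 9.63 CPM in tumor AMs (-0.98 ± 0.120), and for Pdp2, a phosphatase that opposes these kinases, at 15.42 and 15.02 CPM in control and 7.74 and 9.28 CPM in tumor AMs (-0.83 ± 0.133). Neither gene overlapped between the groups. The lactate and pyruvate carrier Slc16a7 was at -0.53 and Tigar, a phosphatase that lowers fructose 2,6-bisphosphate, at -0.51. Both values were only slightly beyond the shift of 0.47 between the scalings. Bsg, which encodes the chaperone of the carriers MCT1 and MCT4, stood at 177.8 and 186.5 CPM in control and at 182.0 and 171.1 CPM in tumor AMs, with overlapping groups, beside the 1.53 rise of Slc16a3.

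Among glycogen genes, Pygl, the phosphorylase with the highest counts of the list, stood at 601.7 and 601.2 CPM in control and at 713.3 and 727.5 CPM in tumor AMs (0.26 ± 0.0228), and the branching enzyme Gbe1 rose by 0.60 ± 0.136.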
